A study of Mus musculus with 12 samples.

Results

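The genes described here make the machinery that copies DNA and supply it with deoxynucleotides, 43 genes in all, from the origin recognition complex to ribonucleotide reductase, together with the transcription factor gene E2f1. Members were taken by gene symbol, and all 43 were found among the 17210 genes of the count table and all 43 passed the filter on low counts that left 11177 genes to test. Before a cell enters S phase, the origin recognition complex marks the places where copying starts, and CDC6 and CDT1 load the MCM helicase onto the DNA there. During S phase MCM10, CDC45 and the GINS complex turn the loaded helicase on, polymerase alpha with its primase lays down primers, and polymerases delta and epsilon extend them while held by the PCNA clamp, which the RFC complex loads. RPA covers the exposed strand, FEN1 and LIG1 finish the lagging strand, and ribonucleotide reductase, thymidine kinase and thymidylate synthase keep up the supply of deoxynucleotides. Many of these genes are transcribed under the control of E2F factors, and red cell precursors copy their genome rapidly before they leave the cell cycle as they mature.

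The cells were G1E-ER4, a mouse erythroid progenitor line without GATA1 of its own that carries GATA1 joined to the ligand-binding domain of the estrogen receptor and in which β-estradiol (EST) therefore activates GATA1. All 4 groups carried this fusion and all had been exposed to a retrovirus for 24 h, which held either no insert (Vector) or a fragment of SREBP2, residues 1 to 468, the factor that turns on cholesterol synthesis genes. Each kind of cell was then left as it was (Vector and SREBP2) or given EST for 6 h (Vector+EST and SREBP2+EST), with 3 mRNA libraries in each of the 4 groups. The EST dose is 500 nM in the sample protocol and in the study's methods, and 200 nM in the series' design text. The labels call the cells embryonic stem cells, whereas 9 erythroid marker genes summed to 9220 to 9650 CPM (counts scaled to a common library size) in Vector and to 6230 to 7370 CPM, without overlap, in the other groups, and the 4 embryonic stem cell markers in the table to 0.65 CPM or less. That erythroid sum includes Gata1 (420 to 1790 CPM over all libraries), Hba-a1 (1530 to 3220 CPM) and Hbb-b1 (2550 to 3320 CPM). Smaller markers such as Alas2 (52 to 186 CPM) add little to it, so it does not show how each marker moved. The labels do not say whether the libraries of a group came from separate cultures, so p-values measure the spread between these libraries, which may be technical. In such bulk RNA, fewer replicating cells and less RNA per cell cannot be told apart.

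Each library held 18700959 to 19152282 estimated counts, and every member had at least 415 in each library, far above the detection floor of 3 counts (0.153 to 0.163 CPM). Levels below are CPM after scaling, as single libraries or as mean ± SD (n = 3), and fold changes are log2 values ± SE. A pair of values in parentheses after a gene gives its log2 fold change with EST in Vector cells and then that with SREBP2 without EST. Counts on Srebf2 were 361 ± 8.32 CPM in Vector and 816 ± 20.1 CPM in SREBP2, and reads of the viral insert and of the cell's own gene were not told apart. Counts on Gata1 were 1769 ± 17.1 CPM in Vector, 557 ± 40.2 CPM in SREBP2 and 453 ± 28.5 CPM in Vector+EST, and the sources used here do not say whether the fusion's own transcript was counted there. Gata2, which GATA1 is known to repress, was at 644 ± 17.7 CPM in Vector, 131 ± 2.80 CPM in SREBP2 and 156 ± 4.55 CPM in Vector+EST. Each library is named by its group and its column number in the deposited table; sample titles use other numbers. Values of a group are printed in the order of that column number. Library 1 of SREBP2 and library 1 of SREBP2+EST stood apart from the other libraries of their groups: a chi-square statistic per gene was 6.06 to 10.3 for pairs that held one of them and 1.8 to 3.24 for all other pairs within a group. Each was nearer to 2 libraries of the other SREBP2 group than to those of its own. By the same statistic SREBP2 library 1 was at 3.69 and 4.77 from SREBP2+EST libraries 2 and 5, against 7.95 and 10.3 from SREBP2 libraries 3 and 5. SREBP2+EST library 1 was at 1.93 and 3.09 from SREBP2 libraries 3 and 5, against 6.06 and 6.16 from the libraries of its own group. SREBP2 library 1 and SREBP2+EST library 1 were at 7.16 from each other. These 2 libraries thus went against their labels, which were kept as deposited, and whether the labels are right was not tested. Every comparison that uses an SREBP2 group rests on them, and the members' counts of calls there are therefore also given without both. Values of single genes and of the related lists are mostly given with all libraries only. Markers of other cell types moved with the groups as well, beside the erythroid sum. The 6 fibroblast markers summed to 19.1 to 19.9 CPM in Vector, 4.59 to 29 CPM in Vector+EST, 3.92 to 5.42 CPM in SREBP2 and 15.4 to 27.4 CPM in SREBP2+EST, with 2 of the 6 under the detection floor in every library. The 4 megakaryocyte markers summed to 38.6 to 43 CPM in Vector, 11.5 to 12.7 CPM in Vector+EST, 46.5 to 61.7 CPM in SREBP2 and 47.1 to 58.6 CPM in SREBP2+EST, and the 5 mast and myeloid markers to 12 to 12.4 CPM in Vector and 2.01 to 4.44 CPM in the other groups. Their part in the results was not tested.

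Promoter sequence is shown for 5 members, 3 that fell and 2 that rose under both treatments, to set their E2F motifs side by side. They are examples, and their numbers of motifs do not stand for the other members. Mcm2, Mcm10, Pcna, Prim1 and Rpa2 also fell under both treatments and have no 8-base E2F motif (defined below). Gins3 and Pola1, which rose with EST in Vector cells, have 1 each. Counts by direction over all members with a promoter are given after the sequences. The sequences are the 250 bases before an annotated start in RefSeq, mouse build GRCm38.p6, printed in the direction of transcription. Of the 43 members, 36 had a promoter sequence in the reference used here, and Mcm4, Gins1, Gins2, Gins4, Prim2, Pole and Rfc2 had none. Of these 36 genes, 31 had 1 annotated start there and 5 (Orc2, Orc4, Mcm7, Fen1 and Lig1) had several, which gives 43 windows. In the first 4 sequences capitals mark E2F motifs (TTTCGCGC, TTTGGCGC, TTTCCCGC or TTTGCCGC on either strand, or their 7-base cores without the first T). The helicase gene Mcm6 (chr1:128359706-128359955, minus strand), among the members that fell most under both treatments, has 3 such 8-base motifs, 110, 106 and 47 bases before the start, and the helicase gene Mcm5 (chr8:75109259-75109508, plus strand) has 2, at 153 and 149 bases. Orc3 (chr4:34614943-34615192, minus strand), a subunit of the origin recognition complex that also fell, has 1 motif 41 bases before its start. The loading factor gene Cdc6 (chr11:98907901-98908150, plus strand), which rose, has 1 at 138 bases. Orc2 (chr1:58505110-58505359, minus strand), which rose most, has no E2F motif in this window, and capitals mark there a GATA motif on the opposite strand (TTATCT) 198 bases before the start. The window of the other annotated start of Orc2, not shown, holds neither an E2F nor a GATA motif.
Mcm6: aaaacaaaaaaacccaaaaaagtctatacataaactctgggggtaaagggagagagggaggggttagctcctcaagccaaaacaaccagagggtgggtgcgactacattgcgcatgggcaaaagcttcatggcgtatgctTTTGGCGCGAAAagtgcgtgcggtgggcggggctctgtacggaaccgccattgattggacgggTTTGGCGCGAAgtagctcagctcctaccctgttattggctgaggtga
Mcm5: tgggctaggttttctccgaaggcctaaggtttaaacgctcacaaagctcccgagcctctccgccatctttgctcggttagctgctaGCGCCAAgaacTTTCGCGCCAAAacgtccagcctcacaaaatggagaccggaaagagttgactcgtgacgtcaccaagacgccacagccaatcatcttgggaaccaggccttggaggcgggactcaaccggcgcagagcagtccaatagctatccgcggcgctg
Orc3: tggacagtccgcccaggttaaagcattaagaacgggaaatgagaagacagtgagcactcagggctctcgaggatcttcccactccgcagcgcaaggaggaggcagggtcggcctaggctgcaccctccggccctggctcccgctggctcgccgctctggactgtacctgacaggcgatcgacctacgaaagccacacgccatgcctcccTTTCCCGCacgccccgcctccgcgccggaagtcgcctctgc
Cdc6: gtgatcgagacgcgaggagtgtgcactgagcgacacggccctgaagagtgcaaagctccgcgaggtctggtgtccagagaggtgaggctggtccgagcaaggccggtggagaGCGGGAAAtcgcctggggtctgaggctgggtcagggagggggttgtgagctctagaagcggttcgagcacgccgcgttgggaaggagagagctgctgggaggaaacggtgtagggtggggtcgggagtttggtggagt
Orc2: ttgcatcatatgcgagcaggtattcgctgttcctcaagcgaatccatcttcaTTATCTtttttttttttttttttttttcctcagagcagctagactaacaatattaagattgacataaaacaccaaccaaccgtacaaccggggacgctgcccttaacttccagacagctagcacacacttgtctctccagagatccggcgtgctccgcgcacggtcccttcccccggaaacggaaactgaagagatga

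In the 36 genes, read from 250 bases before to 50 after each annotated start and counted where any window of a gene matched, an 8-base E2F motif was found in 14, or 38.9%. By window it was in 14 of 43, or 32.6%, against 2.26% of 32851 windows of the reference. The same letters were in the windows of 2.6% of 27025 genes of the reference and of 5.07% of 9059 genes that were also tested for expression. With the 7-base core the count was 23 of 36 (63.9%), against 10.9% of all genes and 19.8% of tested genes. The CCAAT box was in 22 of 36 (61.1%) against 41.1% and 44.5%. A pair of further motifs was searched after the values were seen. GATA sites (AGATAA, also with T as its first or G as its last letter, both strands) were in 5 of 36 (13.9%) against 33% of all and 23% of tested genes, and the sterol element TCACNCCAC was in 1 (Fen1), 2.78% against 1.44% and 1.32%. These matches are letters in a window and say nothing on binding. The 8-base E2F motif was present in 4 of the 12 members with a promoter that rose with EST in Vector cells, in 8 of the 17 that fell and in 2 of the 7 that did not pass the test, and in 1 of 6, 10 of 22 and 3 of 8 when members were divided by the SREBP2 effect. GATA sites (in Orc2, Mcm7, Cdc45, Pola1 and Fen1) were, in the same order, in 4, 1 and 0 members by the EST effect. By the SREBP2 effect they were in 2, 2 and 1.

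The first comparison asked what EST, which activates GATA1 in this line, did to these genes in cells without the SREBP2 fragment. No group received EST without the fusion, so GATA1 activation and other effects of EST cannot be told apart. With EST, 15 of the 43 members rose and 20 fell in Vector cells (edgeR quasi-likelihood test, adjusted p under 0.05), where 35.2% of all genes tested rose and 35.5% fell. The members' median log2 fold change was -0.073, against 0.010 over all genes. Without Vector library 4 it was -0.13, against -0.0265 over all genes. The members' values ran from -0.71 (Cdt1) to 1.35 (Orc2). In 40 of the 43 members the 3 Vector libraries did not overlap the 3 Vector+EST libraries, which was also so in 75.7% of all genes. SREBP2 without EST raised 9 members and lowered 26, where 37.7% of all genes rose and 33.8% fell. Here the median was -0.24 against 0.031 over all genes, and the libraries of SREBP2 and Vector did not overlap in 34 members and in 74.8% of all genes, so that the members' share of 34 of 43 is near that of all genes. Without library 1 of both SREBP2 groups 9 members again rose and 26 fell, with a median of -0.26, and over all genes 3868 rose and 4111 fell, with a median of -0.015. Both comparisons use the same Vector libraries, so they are not independent of each other, and values are given side by side below. With a fold over 1.2 required as well, 7 members rose and 11 fell with EST, where 27.8% of all genes rose and 28% fell. By the same rule 5 members rose and 19 fell with SREBP2, where 30.7% of all genes rose and 26.6% fell.

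**Figure D1:**
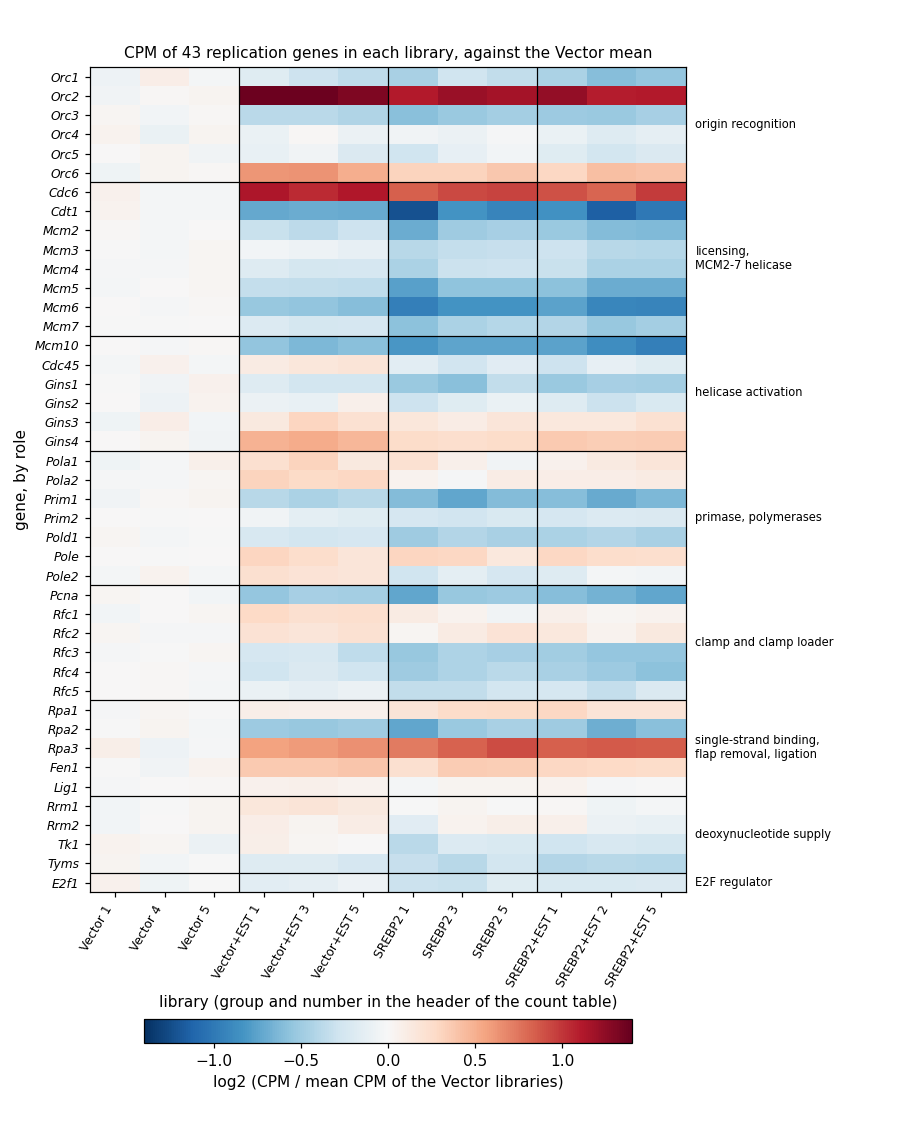
Heat map of the 43 members (rows, by role) in the 12 libraries (columns, by group), with colour for the log2 ratio of a library's CPM to the mean CPM of the 3 Vector libraries. Orc2, Cdc6 and Rpa3 are higher and Cdt1, Mcm10 and Mcm6 lower in all 9 treated libraries than in the Vector libraries.

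Of the 6 subunits of the origin recognition complex, 2 rose (Orc2, Orc6) and 2 fell (Orc1, Orc3) with EST in Vector cells, and 2 rose and 3 fell with SREBP2. The EST shares, 33.3% higher and 33.3% lower, are near the 35.2% and 35.5% of all genes. With SREBP2 37.7% of all genes rose and 33.8% fell. Orc2, a core subunit, changed most of all members. It was measured at 152, 158 and 161 CPM in Vector, 405, 406 and 389.5 in Vector+EST, 339, 362 and 351 in SREBP2, and 369, 335 and 339 in SREBP2+EST. All 9 treated libraries lay above the Vector libraries, and those of Vector+EST lay above those of both SREBP2 groups. The log2 fold change was 1.35 ± 0.043 with EST (edgeR, adjusted p = 2.14e-13) and 1.16 ± 0.043 with SREBP2 (adjusted p = 9.27e-13), 2.55-fold and 2.24-fold. Orc6, the smallest and least tightly held subunit, was at 77.0, 82.0 and 80.9 CPM in Vector, 123, 124 and 114 in Vector+EST, 99.6, 99.5 and 104 in SREBP2, and 97.7, 107 and 105 in SREBP2+EST. Vector libraries were again lowest and Vector+EST libraries highest, and neither overlapped the SREBP2 libraries. Its log2 fold change was 0.59 ± 0.047 with EST (adjusted p = 1.25e-08) and 0.34 ± 0.048 with SREBP2 (adjusted p = 9.07e-06). Orc1, whose protein binds and hydrolyses ATP in the complex, moved the other way, with 39.0, 43.5 and 40.2 CPM in Vector, 36.3, 33.5 and 31.8 in Vector+EST, 29.8, 33.7 and 32.3 in SREBP2, and 30.2, 27.1 and 28.2 in SREBP2+EST. The Vector libraries were the highest 3 of the 12, while Vector+EST and SREBP2 overlapped. The log2 fold change of Orc1 was -0.27 ± 0.066 with EST (adjusted p = 0.00172) and -0.36 ± 0.067 with SREBP2 (adjusted p = 0.000155). Orc3, which pairs with ORC2 in the complex, had means of 121 ± 2.80 CPM in Vector, 83.8 ± 2.98 CPM in SREBP2 and 91.8 ± 1.62 CPM in Vector+EST, and it fell with both treatments (-0.39 and -0.52). Orc4 (-0.050 and -0.047) did not pass the test with either treatment. Orc5 (-0.11 and -0.14) passed with SREBP2 (adjusted p = 0.0393), but not without SREBP2 library 1, SREBP2 library 3, Vector library 1 or Vector+EST library 1 (adjusted p from 0.0504 to 0.197).

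The factors that load the helicase went in opposite directions. Cdc6, whose protein joins the origin complex first, was at 155, 147 and 146 CPM in Vector, 326, 308 and 326 in Vector+EST, 266, 283 and 288 in SREBP2, and 278, 264 and 295 in SREBP2+EST. The treated libraries all lay above the Vector libraries, with Vector+EST highest. Its log2 fold change was 1.10 ± 0.048 with EST (edgeR, adjusted p = 6.66e-12) and 0.90 ± 0.048 with SREBP2 (adjusted p = 6.47e-11). Cdt1, whose protein brings the helicase to CDC6, was measured at 179, 169 and 170.3 CPM in Vector, 105, 107 and 106 in Vector+EST, 74.3, 96.6 and 91.3 in SREBP2, and 95.9, 78.5 and 86.5 in SREBP2+EST. It was highest in the Vector libraries, and the SREBP2 and SREBP2+EST libraries overlapped each other below Vector+EST. Cdt1 fell more than any other member, 38.7% lower with EST (log2 -0.71 ± 0.077, adjusted p = 4.76e-07) and 49.4% lower with SREBP2 (log2 -0.98 ± 0.078, adjusted p = 9.85e-09).

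Of the 6 genes of the MCM helicase itself, 5 fell with EST and all 6 fell with SREBP2, where 35.5% and 33.8% of all genes fell. Mcm6 had the deepest fall among them, with 679, 668 and 684 CPM in Vector, 469, 462 and 448 in Vector+EST, 349.5, 378 and 379 in SREBP2, and 402, 359 and 358 in SREBP2+EST. Vector, Vector+EST and the SREBP2 groups formed 3 levels that did not overlap, in falling order. The log2 fold change of Mcm6 was -0.56 ± 0.045 with EST (edgeR, adjusted p = 1.34e-08) and -0.88 ± 0.045 with SREBP2 (adjusted p = 5.02e-11). Mcm5 was at 511, 521 and 529 CPM in Vector, 412, 408 and 408 in Vector+EST, 308, 353 and 353 in SREBP2, and 349.8, 321 and 322 in SREBP2+EST. Mcm2, whose protein also handles histones at the fork, was at 522, 505 and 518 CPM in Vector, 415, 399.7 and 419.8 in Vector+EST, 319, 365 and 372 in SREBP2, and 359, 338 and 335 in SREBP2+EST. Both showed the same 3 levels without overlap, with log2 fold changes of -0.35 ± 0.048 and -0.32 ± 0.050 with EST (adjusted p = 8.32e-06 and 2.23e-05) and -0.62 ± 0.049 and -0.55 ± 0.050 with SREBP2 (adjusted p = 8.45e-09 and 4.94e-08). Mcm7 was measured at 419, 419.8 and 424 CPM in Vector, 369.5, 355 and 356 in Vector+EST, 282, 309.6 and 318 in SREBP2, and 316, 291 and 302 in SREBP2+EST. Mcm4, part of the catalytic core with MCM6 and MCM7, was at 374, 375 and 386 CPM in Vector, 333, 318 and 322 in Vector+EST, 279, 307 and 308 in SREBP2, and 304, 277 and 279 in SREBP2+EST. In both genes, too, the Vector libraries were highest and the Vector+EST libraries next, without overlap. The log2 fold changes were -0.22 ± 0.044 and -0.22 ± 0.045 with EST (adjusted p = 0.000246 and 0.000355), and with SREBP2 they were -0.47 ± 0.044 and -0.34 ± 0.045 (adjusted p = 6.63e-08 and 3.92e-06). Mcm3, the last of the 6, was measured at 514, 505 and 523 CPM in Vector, 503, 488 and 476 in Vector+EST, 393, 409 and 411 in SREBP2, and 419.6, 393 and 391 in SREBP2+EST. Its Vector+EST libraries lay just below the Vector libraries, without overlap, and the SREBP2 groups clearly below both. The EST value of -0.073 ± 0.037 missed the threshold (adjusted p = 0.0893, and from 0.00161 to 0.0461 in 8 of 20 other settings, among them DESeq2, scaling by library totals alone and leaving out Vector library 4, SREBP2+EST library 2 or SREBP2+EST library 5), and the log2 fold change with SREBP2 was -0.35 ± 0.037 (adjusted p = 3.33e-07).

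**Figure D2:**
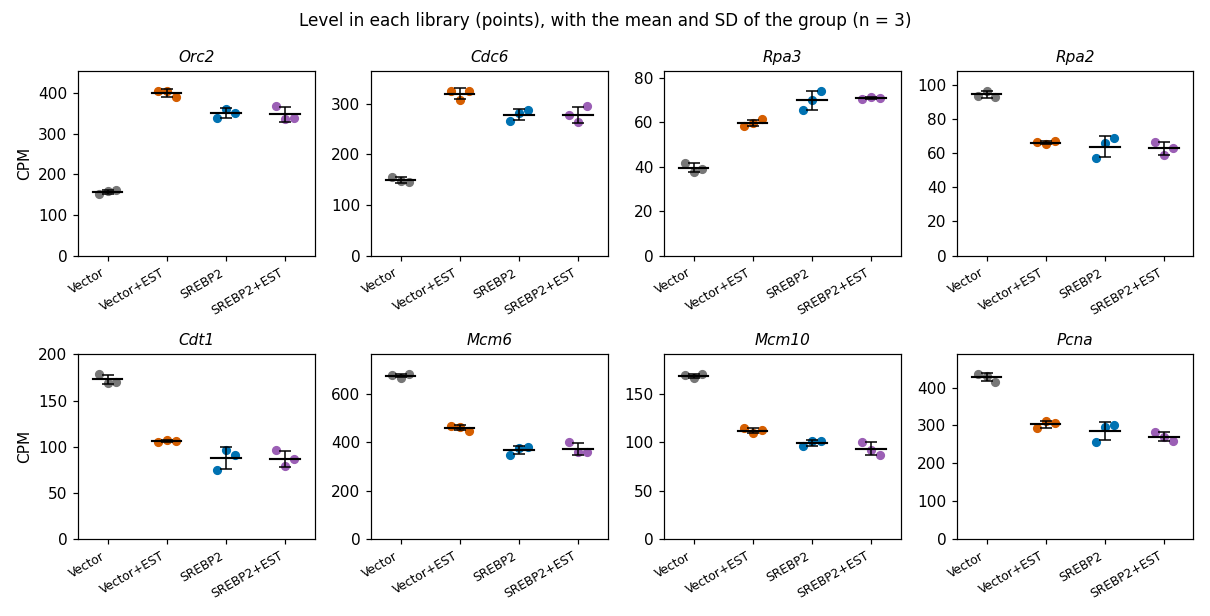
CPM of 8 members in each of the 12 libraries (points, by group, linear axes from 0), with the group mean as a line and ± SD as a bar (n = 3). Orc2 and Cdc6 are lowest and Cdt1 and Mcm6 highest in the Vector libraries, and SREBP2 and SREBP2+EST libraries overlap in all of these 4 genes.

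Among the 6 genes that turn the loaded helicase on, 3 rose and 2 fell with EST, where 35.2% of all genes rose and 35.5% fell. With SREBP2 1 rose and 4 fell, where 37.7% of all genes rose and 33.8% fell. Mcm10, needed for the helicase to start unwinding, was at 169.9, 167 and 171 CPM in Vector, 115, 109 and 113 in Vector+EST, 96.3, 102 and 102 in SREBP2, and 101, 92.4 and 87.1 in SREBP2+EST. It was highest in the Vector libraries, and the log2 fold changes were -0.59 ± 0.047 with EST and -0.76 ± 0.048 with SREBP2 (edgeR, adjusted p = 1.19e-08 and 5.41e-10). Cdc45, which together with GINS makes the loaded helicase active, was measured at 83.6, 89.0 and 83.8 CPM in Vector, 92.6, 95.3 and 97.2 in Vector+EST, 77.3, 70.9 and 76.4 in SREBP2, and 70.0, 78.7 and 76.2 in SREBP2+EST. Its Vector+EST libraries were the highest of the 12 and the libraries of both SREBP2 groups lay below Vector. The rise with EST was 0.15 ± 0.050 (adjusted p = 0.0123) and missed the threshold without Vector library 1, Vector library 5 or Vector+EST library 5 (adjusted p from 0.052 to 0.151), and the log2 fold change with SREBP2 was -0.19 ± 0.051 (adjusted p = 0.00297). The 4 GINS subunits did not share a direction. Gins4 rose (0.49 and 0.25), from 49.5 ± 1.52 CPM in Vector. Gins1 fell (-0.23 and -0.48), from 47.2 ± 1.89 CPM. Gins2 passed the test only for SREBP2 (-0.18, adjusted p = 0.0158, and 0.0699 without SREBP2 library 1), and Gins3 only for EST (0.22, adjusted p = 0.00468, and 0.0541 without Vector library 5).

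All 7 primase and polymerase genes passed the test with EST, 4 up and 3 down, where 70.6% of all genes passed. With SREBP2 1 rose and 4 fell, so that 71.4% passed, near the 71.5% of all genes. Pola1, the catalytic subunit of polymerase alpha, was at 78.8, 80.9 and 86.2 CPM in Vector, 95.4, 102 and 90.4 in Vector+EST, 95.0, 86.1 and 78.9 in SREBP2, and 85.7, 89.4 and 92.0 in SREBP2+EST. The Vector+EST libraries lay above the Vector libraries, by 0.23 ± 0.063 (edgeR, adjusted p = 0.00439, and 0.0506 without Vector library 4), while the SREBP2 libraries overlapped Vector (0.081 ± 0.063, adjusted p = 0.263, and 0.047 without SREBP2 library 5). Pola2, its second subunit, rose by 0.29 with EST and had 0.044 with SREBP2, which did not pass. Prim1, the primase that makes the RNA primer, fell most among these genes, with -0.41 ± 0.048 with EST and -0.64 ± 0.048 with SREBP2, from 76.6 ± 2.36 CPM in Vector to 49.0 ± 2.46 CPM in SREBP2. Prim2, its partner, fell too (-0.12 and -0.24). Its EST call held in 18 of 20 other settings and was lost without Vector+EST library 3 (adjusted p = 0.0523), with 0.108 as the largest adjusted p of any setting. Pold1, the catalytic subunit of polymerase delta on the lagging strand, fell (-0.24 and -0.45), and Pole, that of the leading-strand polymerase epsilon, rose (0.24 and 0.25). Pole2, the second subunit of polymerase epsilon, was at 31.3, 33.0 and 31.2 CPM in Vector, 37.1, 36.2 and 35.7 in Vector+EST, 26.3, 29.0 and 27.0 in SREBP2, and 28.1, 31.2 and 30.9 in SREBP2+EST. Its Vector+EST libraries lay above and its SREBP2 libraries below those of Vector, with log2 fold changes of 0.19 ± 0.057 with EST (adjusted p = 0.00669, and 0.0748 without Vector library 5) and -0.21 ± 0.058 with SREBP2 (adjusted p = 0.00379).

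Pcna, the sliding clamp that holds the polymerases on DNA, was measured at 437, 430.1 and 415 CPM in Vector, 293, 311 and 307 in Vector+EST, 257, 296 and 301 in SREBP2, and 283, 269.8 and 258 in SREBP2+EST. The Vector libraries lay above all 9 others, and Vector+EST and SREBP2 overlapped. Pcna was 29.0% lower with EST (log2 -0.49 ± 0.053, edgeR, adjusted p = 3.8e-07) and 33.4% lower with SREBP2 (log2 -0.59 ± 0.053, adjusted p = 4.61e-08). Genes with processed copies elsewhere in the genome, as Pcna is known to have, can share reads with them, and RSEM, which the submitters' processing notes name, divides such reads in estimated shares, so this value is uncertain. The clamp loader was split. Rfc3 and Rfc4, 2 of its small subunits, fell with both treatments, Rfc3 (-0.27 and -0.47) and Rfc4 (-0.25 and -0.44) alike in direction. Rfc5 fell as well (-0.10 and -0.31), and for EST the adjusted p of 0.043 went above 0.05 without 1 of 4 libraries (SREBP2 library 3, Vector library 1, and Vector+EST libraries 1 and 3, 0.0518 to 0.124). Rfc1, the large subunit, rose with EST (0.25) and had a value of 0.041 with SREBP2, which did not pass, and Rfc2 rose with both (0.20 and 0.11). The SREBP2 call of Rfc2 (adjusted p = 0.0275) was lost with DESeq2 (0.106) and without any of 6 libraries (Vector 4 and 5, Vector+EST 5, SREBP2 3 and 5, and SREBP2+EST 5, adjusted p from 0.0535 to 0.256).

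The 3 subunits of RPA, which bind single-stranded DNA as one complex, did not move together. Rpa3, the smallest, was at 41.7, 37.6 and 39.1 CPM in Vector, 58.1, 59.6 and 61.3 in Vector+EST, 65.4, 69.8 and 74.3 in SREBP2, and 70.6, 71.5 and 70.8 in SREBP2+EST. Vector was lowest, Vector+EST next and the SREBP2 groups highest, and neither Vector nor Vector+EST overlapped any other group. Rpa3 rose by 0.60 ± 0.054 with EST (edgeR, adjusted p = 5.05e-08) and 0.82 ± 0.053 with SREBP2 (adjusted p = 8.22e-10). Rpa2 fell (-0.51 and -0.57), from 94.6 ± 2.00 CPM in Vector to 66.3 ± 0.704 CPM in Vector+EST, and to 64.0 ± 6.21 CPM in SREBP2. Rpa1, the large subunit, was measured at 322, 331 and 324 CPM in Vector, 345, 343 and 342 in Vector+EST, 369, 388 and 393 in SREBP2, and 399, 369.9 and 368 in SREBP2+EST. Both SREBP2 groups lay above both groups without it, with a rise of 0.24 ± 0.038 (adjusted p = 3.28e-05), and the EST value of 0.077 ± 0.038 did not pass the test (adjusted p = 0.0807, and 0.0468 without SREBP2+EST library 1). Fen1, the nuclease that trims the flaps of the lagging strand, was at 137, 132 and 141 CPM in Vector, 176, 176 and 179 in Vector+EST, 159, 175 and 173 in SREBP2, and 167, 166 and 163 in SREBP2+EST. It rose in all treated libraries above Vector, by 0.37 ± 0.041 with EST (adjusted p = 5.18e-07) and 0.31 ± 0.041 with SREBP2 (adjusted p = 4.78e-06). Lig1, the ligase that seals the lagging strand, was at 349.6, 353 and 355 CPM in Vector, 366, 371 and 364 in Vector+EST, 346, 363 and 363 in SREBP2, and 364, 349 and 349.9 in SREBP2+EST. The Vector+EST libraries lay just above those of Vector, which the SREBP2 libraries overlapped. Its values of 0.058 ± 0.033 and 0.020 ± 0.033 did not pass the test (adjusted p = 0.125 and 0.607), and the sign of the SREBP2 value changed with the scaling, so no direction is given.

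Of the 4 genes for deoxynucleotide supply, 1 rose and 1 fell with EST, and none rose and 2 fell with SREBP2. That is 50% past the test under each treatment, against 70.6% and 71.5% of all genes. Rrm1, the large subunit of ribonucleotide reductase, was at 495, 507 and 522 CPM in Vector, 565, 575 and 558 in Vector+EST, 505, 523 and 506 in SREBP2, and 515, 487 and 498 in SREBP2+EST. Vector+EST lay above the other 3 groups, by 0.16 ± 0.034 over Vector (edgeR, adjusted p = 0.000608), and SREBP2 overlapped Vector (0.0095 ± 0.034, adjusted p = 0.815, with a sign that changed with the scaling). Rrm2, the small subunit that is normally made in S phase, was measured at 386, 399 and 408 CPM in Vector, 424, 409 and 427 in Vector+EST, 355, 411 and 422 in SREBP2, and 417, 375 and 369 in SREBP2+EST. SREBP2 libraries spanned the Vector libraries, and neither the EST value of 0.079 ± 0.058 nor the SREBP2 value of -0.0060 ± 0.058 passed the test (adjusted p = 0.234 and 0.933). Tk1, the thymidine kinase of dividing cells, was at 115, 113 and 104 CPM in Vector, 117, 113 and 111 in Vector+EST, 84.9, 97.1 and 95.4 in SREBP2, and 91.5, 94.9 and 93.1 in SREBP2+EST. Both groups with SREBP2 lay below both groups without it, with a log2 fold change of -0.26 ± 0.052 with SREBP2 (adjusted p = 0.000292) and an EST value of 0.040 ± 0.051 that did not pass the test (adjusted p = 0.5). Tyms, which makes thymidylate from deoxyuridylate, was at 64.1, 60.6 and 62.1 CPM in Vector, 54.8, 55.2 and 52.8 in Vector+EST, 49.8, 47.5 and 52.1 in SREBP2, and 47.0, 47.7 and 47.4 in SREBP2+EST. It was highest in the Vector libraries, and the log2 fold changes were -0.20 ± 0.046 with EST (adjusted p = 0.00102) and -0.32 ± 0.046 with SREBP2 (adjusted p = 9.58e-06).

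E2f1, the E2F factor classed as an activator of S phase genes, was at 88.4, 81.3 and 84.5 CPM in Vector, 76.4, 77.4 and 80.7 in Vector+EST, 68.6, 68.5 and 75.6 in SREBP2, and 72.9, 73.0 and 73.4 in SREBP2+EST. Vector libraries were highest, Vector+EST libraries next and those of both SREBP2 groups lowest, without overlap between these 3 levels. The log2 fold change was -0.12 ± 0.047 with EST (edgeR, adjusted p = 0.0361), a call that missed the threshold without Vector library 1 or Vector+EST library 1 or 3 (adjusted p from 0.0945 to 0.159), and -0.26 ± 0.048 with SREBP2 (adjusted p = 0.000142).

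**Figure D3:**
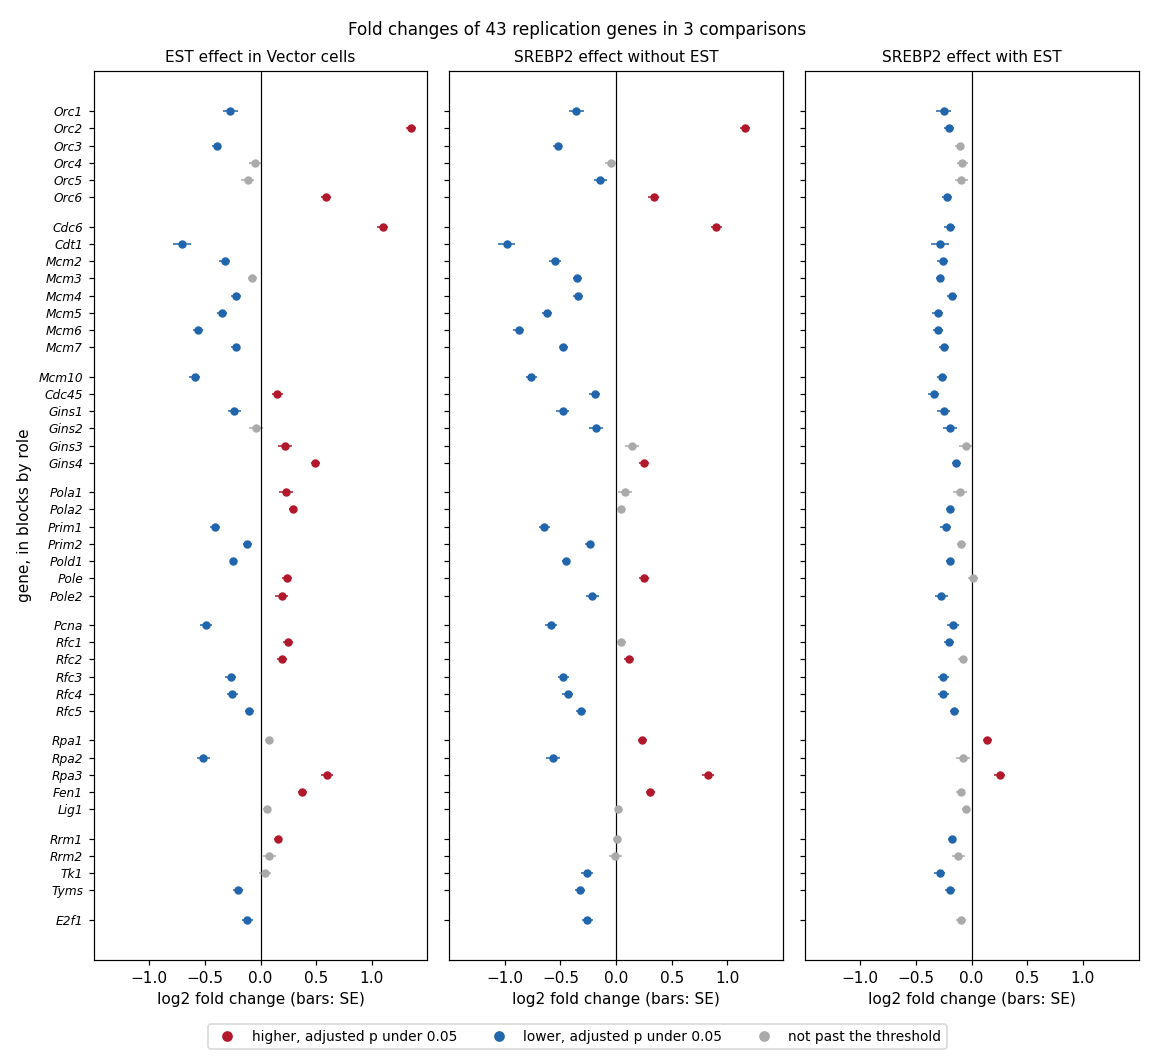
Log2 fold changes (points, with ± SE as bars) of the 43 members in 3 comparisons, EST in Vector cells, SREBP2 without EST and SREBP2 with EST, with members in blocks by role and colour for calls higher, lower or not past the threshold. In the third panel 40 of the 43 points lie left of 0, with 28 called lower and 2 called higher.

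Next, SREBP2 was compared with the empty virus in cells that had all received EST. In this comparison 2 members rose and 28 fell, where 14% of all genes tested rose and 7.94% fell, and 40 of the 43 log2 fold changes were below 0. The median was -0.19, against -0.0048 over all genes, and no member's log2 fold change was beyond -0.34 or 0.25. With a fold over 1.2 required as well, 0 members rose and 8 fell, where 9.68% of all genes rose and 1.53% fell. Cdc45 fell most (-0.34 ± 0.050, edgeR, adjusted p = 1e-04), followed by Mcm5 (-0.31 ± 0.049) and Mcm6 (-0.30 ± 0.045). All 8 loading factor and MCM genes were among the falls, from -0.18 for Mcm4 to -0.31 for Mcm5, including Mcm3 (-0.29 ± 0.037, adjusted p = 2.51e-05). Cdc6, Orc2 and Orc6 also fell here, with log2 fold changes of -0.20, -0.20 and -0.22, while both groups stood above Vector in these genes. Of the genes for deoxynucleotide supply, Tk1 (-0.29), Tyms (-0.20) and Rrm1 (-0.18) fell, and Rrm2 at -0.12 ± 0.058 did not pass the test (adjusted p = 0.162, and 0.0403 without SREBP2 library 1). The 2 rises were Rpa3 (0.25 ± 0.052, adjusted p = 0.00217) and Rpa1 (0.14 ± 0.038, adjusted p = 0.0126, and 0.0552 without SREBP2+EST library 1). E2f1 at -0.096 ± 0.048 and Lig1 at -0.051 ± 0.033 did not pass (adjusted p = 0.172 and 0.297). Calls of Cdt1, Orc1, Pcna, Mcm4, Gins2, Gins4 and Rfc5 were lost without at least 1 library (SREBP2+EST 2 or 5, any Vector+EST library, Vector 1 or SREBP2 3), with adjusted p from 0.0502 to 0.159 there. Without library 1 of both SREBP2 groups 2 members were higher and 32 lower, and with libraries scaled by their totals alone 1 was higher and 35 lower. The split over all genes, 1560 higher and 888 lower, moved as well, to 1896 and 1576 without these libraries and to 1292 and 1768 with that scaling. Leaving out a single library moved it too, to 1263 and 510 without Vector+EST library 3 and to 1798 and 1286 without SREBP2 library 1.

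EST in cells that already had SREBP2 gave no call among the 43 members in edgeR, and none among all 11177 genes (0% higher and 0% lower). At an unadjusted p under 0.05 there were 3 members (Orc1, Gins4 and Pole2) and 506 genes in all, and DESeq2 called 1 gene higher and 11 lower, none of them a member. The members' log2 fold changes lay between -0.16 (Orc1) and 0.13 (Pole2), with a median of -0.0064, and their standard errors in this comparison ran from 0.033 to 0.081. Orc2 had -0.013 ± 0.042, Cdc6 -0.00037 ± 0.047, Cdt1 -0.0066 ± 0.081 and Mcm6 0.016 ± 0.046, all with adjusted p of 0.919 or more in edgeR. Both groups of this comparison hold 1 of the 2 libraries that went against their labels, so the lack of calls cannot be read as a lack of response to EST, and it changed when they were left out. Without library 1 of SREBP2 and of SREBP2+EST, 698 genes rose and 869 fell, and 8 members fell: Orc1, Cdt1, Mcm2, Mcm4, Mcm5, Mcm10, Pcna and Rrm2, with a members' median of -0.063.

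The interaction tested whether the EST effect differed between the 2 kinds of cells, as the log2 effect in SREBP2 cells minus that in Vector cells. It was positive and past the test in 17 members and negative in 11, where 29.8% of all genes were positive and 29.2% negative, and the median was 0.045 against -0.0034 over all genes. The median was -0.020 without SREBP2 library 1 and -0.0033 without library 1 of both SREBP2 groups, so no direction is given for the members as a group. With a fold over 1.2 required as well, 9 members were positive and 6 negative, where 25.2% of all genes were positive and 25.4% negative. The largest negative values were those of Orc2 (-1.36 ± 0.060, adjusted p = 3.02e-11 in edgeR), Cdc6 (-1.10 ± 0.066, adjusted p = 1.02e-09) and Rpa3 (-0.57 ± 0.074, adjusted p = 6.21e-06). Orc6 and Fen1 came next, with -0.56 and -0.41. The largest positive values were those of Cdt1 (0.70 ± 0.11, adjusted p = 5.21e-05), Mcm6 (0.57 ± 0.064, adjusted p = 1.27e-06) and Mcm10 (0.50 ± 0.068, adjusted p = 1.15e-05), followed by Rpa2 (0.49), Pcna (0.42), Orc3 (0.42) and Prim1 (0.41). No difference between the 2 EST effects was detected in Lig1 (-0.071 ± 0.047, adjusted p = 0.204), Tk1 (-0.029 ± 0.073, adjusted p = 0.755) or Mcm3 (0.061 ± 0.052, adjusted p = 0.33). Without library 1 of both SREBP2 groups 19 members were positive and 13 negative, and the split over all genes moved from 3326 positive and 3265 negative to 3535 and 2917.

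The 2 treatments were also set directly against each other, SREBP2 alone over EST alone. Here 2 members were higher with SREBP2 and 26 lower, where 14.4% of all genes were higher and 8.96% lower, with a median of -0.17 against -0.0040. With a fold over 1.2 required as well, 0 members were higher and 7 lower, where 10.3% of all genes were higher and 2.05% lower. Pole2 differed most (-0.40 ± 0.058, edgeR, adjusted p = 7.29e-05), then Cdc45 (-0.34 ± 0.050, adjusted p = 9.37e-05) and Mcm6 (-0.32 ± 0.045, adjusted p = 7.11e-05). Tk1 (-0.30), Mcm3 (-0.27), Mcm5 (-0.28) and Orc6 (-0.25) were lower with SREBP2 as well. Rpa3 (0.23 ± 0.052) and Rpa1 (0.16 ± 0.038) were the 2 that were higher. For Pcna the value was -0.094 ± 0.053 (adjusted p = 0.229), and for Orc1 it was -0.088 ± 0.068 (adjusted p = 0.394), neither past the test. The call of E2f1 (-0.14 ± 0.048, adjusted p = 0.045) was lost without any of 8 libraries (SREBP2 1 and 3, SREBP2+EST 2 and 5, Vector 5 and the 3 of Vector+EST, adjusted p from 0.0591 to 0.168), and those of Cdt1, Mcm10, Rfc4, Gins1, Orc3 and Prim2 were lost without at least 1 library (adjusted p from 0.0503 to 0.207). Without library 1 of both SREBP2 groups the counts were again 2 and 26, while over all genes they were 2107 higher and 1774 lower. With libraries scaled by their totals alone the split over all genes went from 1615 higher and 1002 lower to 1365 higher and 1868 lower. It was 1294 higher and 591 lower without SREBP2 library 3, and 1859 higher and 1375 lower without SREBP2 library 1.

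With both treatments, 11 members were higher than in Vector and 26 lower, where 38.6% of all genes were higher and 34.2% lower, with a median of -0.21 against 0.043. With a fold over 1.2 required as well, 6 members were higher and 18 lower, where 31.7% of all genes were higher and 27.4% lower. Orc2 (1.15 ± 0.043), Cdc6 (0.90 ± 0.048) and Rpa3 (0.85 ± 0.053) rose most, and Cdt1 (-0.99 ± 0.078), Mcm6 (-0.86 ± 0.045) and Mcm10 (-0.86 ± 0.048) fell most. Pcna was lower with a log2 fold change of -0.66 ± 0.053 (edgeR, adjusted p = 1.02e-08), Tyms with -0.40 ± 0.046 (adjusted p = 9.8e-07) and Orc1 with -0.52 ± 0.068 (adjusted p = 3.15e-06). Rrm1, Rrm2 and Lig1 had values of -0.023 ± 0.034, -0.040 ± 0.058 and 0.0069 ± 0.033 that did not pass. Without library 1 of SREBP2 and of SREBP2+EST, 8 members were higher and 28 lower, while the split over all genes moved from 4309 higher and 3818 lower to 4137 and 4209. The small rises of Pola2, Rfc2 and Gins3 and the fall of Orc4 were each lost without at least 1 library (adjusted p from 0.0584 to 0.318). Of 20 other settings, Pola2 was called in 6, Rfc2 in 8, Gins3 in 10 and Orc4 in 16.

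**Figure D4:**
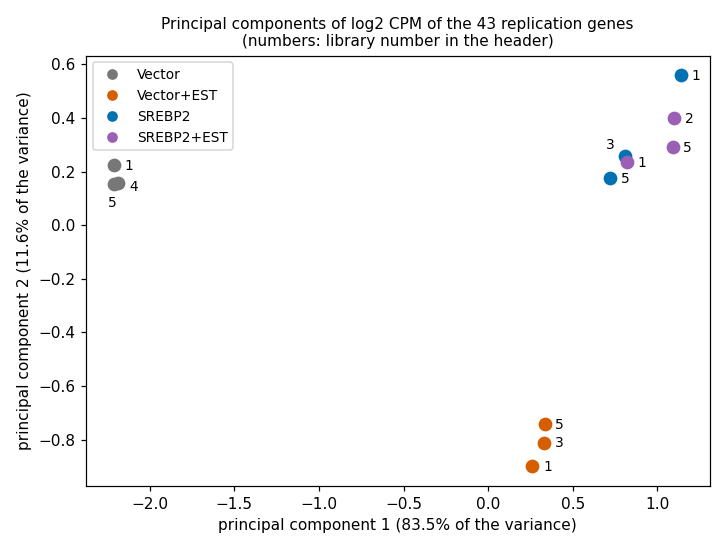
First and second principal components of log2 CPM over the 43 members, 1 point for each of the 12 libraries, coloured by group; the axes give 83.5% and 11.6% of the variance. Vector libraries lie at -2.19 to -2.21 on the first axis, and library 1 of SREBP2 (1.14) lies nearest to libraries 2 and 5 of SREBP2+EST (1.1 and 1.09).

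Over the 43 members the first principal component took 83.5% of the variance between libraries and the second 11.6%. The Vector libraries lay at -2.19 to -2.21 on the first, Vector+EST at 0.261 to 0.333 and the 6 libraries with SREBP2 at 0.72 to 1.14. The second component held Vector+EST (-0.743 to -0.9) apart from the 6 libraries with SREBP2 (0.175 to 0.56). Library 1 of SREBP2+EST, at 0.821 on the first, was next to SREBP2 libraries 3 and 5 (0.81 and 0.72). The principal components are a description of these libraries, with no test.

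Levels were compared between genes per kilobase, as CPM divided by the length of the longest annotated transcript of each gene. On this scale the 6 MCM genes in Vector cells ran from 105 CPM per kilobase (Mcm4) to 170 CPM per kilobase (Mcm3), a ratio of 1.61. Mcm3 was highest and Mcm4 lowest in all 12 libraries, with ratios from 1.58 to 1.82. Mcm6 changed its place in this order, from 156 CPM per kilobase in Vector to 106 in Vector+EST and 84.7 in SREBP2, where it lay next to Mcm4 (83.1). This order depends on which transcript is used. With the shortest annotated transcript the ratio over the MCM genes in Vector was 5.85, with Mcm4 highest.

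The lists beside the members held other genes of the same work, and they too were described by counts, which stand beside 35.2% of all genes higher and 35.5% lower with EST (median 0.010) and 37.7% and 33.8% with SREBP2 (median 0.031). Of 32 other replication fork and origin genes tested, 7 rose and 15 fell with EST (median -0.088), so that 68.8% passed the test against 70.6% of all genes, and 5 rose and 22 fell with SREBP2 (median -0.28). Atad5, which unloads PCNA, rose (1.11 and 0.72), and Dna2, a nuclease of the lagging strand, fell (-0.91 and -1.13). Polymerase delta's second subunit gene Pold2 fell (-0.81 and -0.61), while Pold4, its smallest, rose by 0.82 with SREBP2. Mtbp, a factor for origin firing, rose (0.56 and 0.26). All 9 genes on the list of histone chaperones and maintenance factors passed the test with EST, 1 up and 8 down (median -0.21), and none rose and 7 fell with SREBP2 (median -0.43). Uhrf1, which guides DNA methylation to new strands, fell (-0.96 and -0.97), Chaf1b, a subunit of the assembly factor CAF-1, (-0.73 and -0.83), and Hells, a chromatin remodeller, (-0.51 and -0.75).

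Genes that make the precursors of deoxynucleotides were described in the same way, beside 35.5% of all genes lower with EST and 33.8% with SREBP2. Of 13 purine synthesis genes tested, none rose and 11 fell with EST (median -0.35) and all 13 fell with SREBP2 (median -0.55), led by Gart (-1.10 and -1.28). Of 9 pyrimidine synthesis genes 8 fell and 1 (Cmpk1) rose under each treatment, with medians of -0.71 and -0.66. Ctps (-0.81 and -0.90), Ctps2 (-0.86 and -0.83) and Umps (-0.77 and -0.87) fell most there, and Cad, which opens the pathway, fell (-0.71 and -0.81). On the list of 15 thymidylate, folate and salvage genes 3 rose and 8 fell with EST (median -0.18) and 2 rose and 9 fell with SREBP2 (median -0.36). Dctd, which makes deoxyuridylate from deoxycytidylate, fell (-1.96 and -1.93), and Samhd1, which degrades deoxynucleotides, (-1.02 and -1.14). The salvage kinases Dck (1.06 and 1.03) and Tk2 (0.89 and 0.94) rose. The difference between these lists and the members was not tested.

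Of 13 genes on the list of E2F factors, their partners and pocket proteins, which includes E2f1, 5 rose and 6 fell with EST (median -0.075) and 3 rose and 7 fell with SREBP2 (median -0.14). These counts, and those of the checkpoint genes below, stand beside 35.2% of all genes higher and 35.5% lower with EST. With SREBP2 37.7% of all genes were higher and 33.8% lower. E2f2, an activator like E2f1, fell (-1.64 and -1.69), from 99.9 ± 3.39 CPM in Vector to 32.1 ± 2.76 CPM and 30.9 ± 1.71 CPM. E2f7, a repressor, fell (-0.94 and -1.16), and E2f5 (-0.63 and -0.75). E2f4 fell (-0.19 and -0.27), and the partner gene Tfdp1 (-0.41 and -0.49). E2f6 (0.20 and 0.26), the partner gene Tfdp2 (0.60 and 0.22) and the pocket protein gene Rbl2 (0.61 and 0.49) rose. E2f8 and Rbl1 rose with EST (0.23 and 0.24) and had values of 0.091 and -0.059 with SREBP2, which did not pass. E2f3 had -0.075 with EST, which did not pass, and fell with SREBP2 (-0.14), while Rb1 did not pass in either (0.090 and -0.033). Of 10 replication checkpoint genes 1 rose and 9 fell under each treatment (medians -0.43 and -0.36). Rad17, which loads the checkpoint clamp, rose (1.05 and 0.94), and the kinase genes Atr (-0.76 and -0.69) and Chek1 (-0.46 and -0.75) fell.

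Mitosis genes were listed for comparison. Of 18 tested, 12 rose and 2 fell with EST (median 0.33), where 35.2% of all genes rose and 35.5% fell, and 12 rose and 2 fell with SREBP2 (median 0.25), where 37.7% rose and 33.8% fell. Ccna2, the cyclin of S phase and mitosis, rose (1.14 and 1.19), the spindle factor gene Tpx2 (0.82 and 0.80), and Top2a, which untangles chromosomes, (0.73 and 0.59). With EST present, SREBP2 raised 1 of the 18 and lowered 1, where 14% of all genes rose and 7.94% fell. For the other lists the counts in that comparison were 2 higher and 17 lower of 32 fork and origin genes, 1 and 6 of 9 histone chaperone genes, 0 and 7 of 15 thymidylate and folate genes, 0 and 2 of 9 pyrimidine genes, 0 and 8 of 13 purine genes, 0 and 4 of 13 E2F genes and 0 and 2 of 10 checkpoint genes. EST in SREBP2 cells gave no call in any of these lists.

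**Figure D5:**
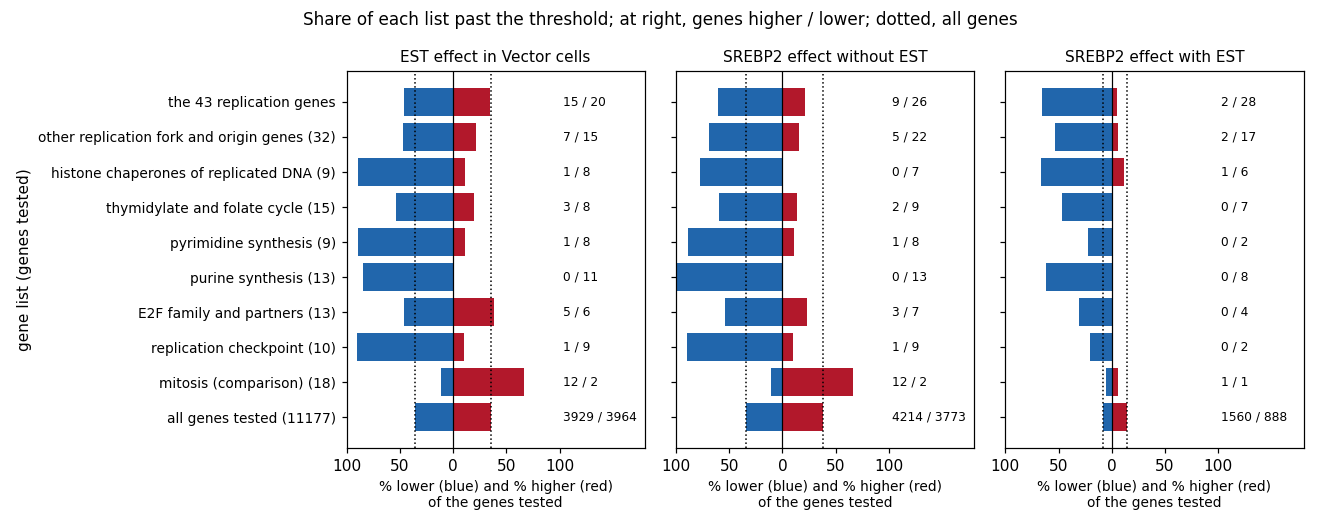
Percent of genes tested that were called lower (blue, to the left) and higher (red, to the right) in the members, in each related list and in all genes tested (dotted lines), with the counts printed at the right of each panel. With SREBP2 all 13 purine genes are in the lower bar, and mitosis is the list with the longest higher bar in the EST panel and in that of SREBP2 without EST, 12 of 18.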

How the data were processed

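mRNA from 12 libraries of G1E-ER4 cells (3 in each of 4 groups, taken from sample titles) was sequenced, and the authors deposited estimated counts per gene, not normalized, of which 66.5% were whole numbers. The submitters' processing notes name HISAT2 2.0.4, Bowtie2 2.2.5, RSEM 1.2.12 and DESeq2 1.4.5; the genome build and annotation are not given in the sources used here. A second deposited file holds the authors' own comparisons (log2 fold changes, p-values and adjusted p-values) and was not used.

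Counts were rounded to whole numbers, filtered with filterByExpr and scaled with TMM factors. Each comparison was a contrast in one edgeR 4.0.16 quasi-likelihood fit over all 12 libraries (R 4.3.3), with Benjamini-Hochberg adjustment over 11177 genes and a threshold of 0.05. Standard errors were derived from the F statistic (log2 fold change over its square root). A prior count of 2 went into log2 CPM for the principal components. Alternatives used DESeq2 1.42.0, other scalings and filters, fewer libraries and a replicate block. Levels per kilobase used GENCODE M21 transcript lengths, and promoters came from RefSeq (GRCm38.p6). Totals were 18700959 to 19152282 counts per library, and the median coefficient of variation of the members within a group was 2.4% to 5.01%, which includes counting error.

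The members and lists were chosen with earlier results of these data known, and motifs were described without a test. Values in every library are given for the MCM genes, Cdc6, Cdt1, Orc1, Orc6, Pcna, Pola1, Fen1, Lig1, Rrm1, Rrm2, Tk1, Tyms and E2f1, and for up to 3 of the largest rises and falls in each contrast among called members whose average log2 CPM reached 3. The other members are given by means or folds, and up to 3 genes with the largest changes were named from each list, with all E2F family members and partners. Mtbp, Tk2, Cad and Cmpk1 were named after their values were seen. On counts simulated for the EST effect in Vector cells (11177 genes), changes of 1.2, 1.5, 2 and 3 times were recovered in 58%, 92%, 94% and 100% of changed genes, and 10 of 182 calls were false. Only 50 genes were changed at each fold there, while 70.6% of genes were called in the data, so these rates need not hold for the data.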

Additional observations from a re-analysis of the deposited data

Results flagged for a closer look

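The effect of EST differed between SREBP2 cells and Vector cells in 28 of the 43 members by the test of the difference itself (edgeR, adjusted p under 0.05), more positive in SREBP2 cells in 17 and more negative in 11. That is 65.1% of the members, and 59% of all genes tested passed the same test (29.8% positive and 29.2% negative), so the members' count is near that of all genes. The difference, as a log2 value, was 0.70 for Cdt1, 0.57 for Mcm6 and 0.50 for Mcm10, and -1.36 for Orc2, -1.10 for Cdc6 and -0.57 for Rpa3. In these 6 genes EST moved the level in Vector cells and no change with EST was detected in SREBP2 cells when all libraries were used. Library 1 of each SREBP2 group was nearer to most libraries of the other SREBP2 group than to those of its own. Without both of these the counts were 19 positive and 13 negative members, and 3535 positive and 2917 negative of 11292 genes tested. In that setting Cdt1 and Mcm10 fell with EST in SREBP2 cells as well, with log2 fold changes of -0.19 and -0.18 (edgeR, adjusted p = 0.0167 and 0.00975).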

How the results depend on the processing

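Calls and medians of the 43 members are compared here with those of the report. Medians of log2 fold changes moved by more than the spread of the library medians in a few settings. For EST in Vector cells the median was -0.11 with at least 10 counts required in every library, and also without library 1 of both SREBP2 groups. For SREBP2 without EST it was -0.26 with DESeq2, -0.26 with relative log expression scaling, -0.29 with library totals only and -0.27 with at least 10 counts. For both treatments against Vector it was -0.25 with DESeq2, with relative log expression scaling, with at least 10 counts (-0.24) and with only the libraries compared (-0.25), -0.27 with library totals and -0.27 without library 1 of both SREBP2 groups. Library totals gave -0.24 and 1 rise for SREBP2 with EST, and -0.21 for SREBP2 alone against EST alone. The interaction median was 0.078 with at least 10 counts and -0.0033, so of the other sign, without library 1 of both SREBP2 groups. Leaving out these libraries also gave 8 falls and a median of -0.063 for EST in SREBP2 cells. This setting, like the motifs searched late, was chosen after the data were seen.

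Requiring a fold over 1.2 left 7 rises and 11 falls for EST in Vector cells, 5 rises and 19 falls for SREBP2 without EST, 0 rises and 8 falls for SREBP2 with EST, 9 positive and 6 negative interactions, 0 higher and 7 lower for SREBP2 against EST, and 6 rises and 18 falls for both treatments, beside the shares of all genes given above. The numbers in the headers did not pair the libraries: none of 13 pairs with the same number had a correlation of deviations over 0.1 (-0.174 to 0.0674). A replicate block on these numbers gave 1 rise, 15 falls and a median of -0.17 for SREBP2 with EST, where over all genes 1005 rose and 203 fell, and an interaction median of 0.095. No other count of the members' calls moved by over 1.5 times under the block.

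Leaving out 1 library at a time, EST in Vector cells gave 12 to 16 rises, 17 to 22 falls and medians of -0.13 to -0.072. SREBP2 without EST gave 8 to 10, 24 to 27 and -0.28 to -0.22, and SREBP2 with EST gave 1 to 2, 22 to 31 and -0.20 to -0.17. EST in SREBP2 cells gave 0 calls and medians of -0.037 to 0.014. The interaction gave 13 to 19 positive, 10 to 12 negative and medians of -0.020 to 0.085, below 0 without SREBP2 library 1. SREBP2 against EST gave 2 higher and 21 to 27 lower, and both treatments gave 8 to 12 rises, 25 to 26 falls and medians of -0.28 to -0.21. The highest-to-lowest ratio over the MCM genes per kilobase was 5.85 with the shortest transcripts, and the 7-base E2F core was in the promoters of 23 genes. The causes were not tested. Depth was nearly equal across libraries, and 3 counts were a floor far below every member.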
